A study of Mus musculus with 2 samples.

Results

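The cells described here are Nkx2-1-positive endodermal cells caught in a dissection of the embryonic mouse heart field. They were chosen from single-cell UMI counts (a UMI is a tag that marks 1 captured RNA molecule). A member had at least 1 UMI of Nkx2-1, UMIs of at least 2 different genes among Epcam, Cdh1, Foxa1, Foxa2, Cldn6, Krt8 and Krt18, and less than 0.5% of its UMIs from the liver genes Afp, Alb, Apoa1 and Apoa2. Of 8972 cells that passed the filters, 83 met this rule, 47 of 4038 in library 1 and 36 of 4934 in library 2. That is 1.16% of library 1 (exact 95% binomial interval 0.856 to 1.54) and 0.730% of library 2 (0.512 to 1.01). The intervals cover counting error only.

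Nkx2-1 is a homeodomain transcription factor that marks the endoderm from which the lung, the trachea and the thyroid form. The ventral wall of the foregut lies against the second heart field, a mesodermal progenitor pool that adds cells to the heart tube. Foregut endoderm secretes the ligand Sonic hedgehog (Shh), which is read by the receptor Patched and the transducer Smoothened in nearby mesoderm and activates target genes through GLI factors. The series is annotated as a study of Hedgehog- and GLI-dependent networks.

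Both libraries came from wild-type (WT) embryos of the outbred CD1 strain at embryonic day 10.0. For each, the posterior second heart field (pSHF) and the heart tube (HT) were dissected from about 80 embryos, pooled and run by Drop-seq, on different days. There is 1 group and no treatment, genotype or time contrast, so all comparisons are between kinds of cells within the 2 libraries. Library 1 held 5000 barcodes with 11958912 UMIs and library 2 held 7497 barcodes with 14131384 UMIs, and none of the members carried a barcode found in both libraries.

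The members were compared with 3 other sets of cells, each cut by UMIs of gating genes that were then left out of every test. The Foxa-positive class (107 and 118 cells) met the same epithelial and liver limits and had a Foxa1 or Foxa2 UMI but no Nkx2-1 UMI. Foxa1 and Foxa2 are pioneer factors of the endoderm, so this class stands for other endoderm. Every cell of this class had a Foxa UMI by the gate, while a member need not have 1. The 2 classes therefore also differ in their share of cells with Foxa UMIs. The Foxa-negative epithelial class (378 and 633 cells) met the epithelial and liver limits with no UMI of Nkx2-1, Foxa1 or Foxa2. Its name describes this gate only, since it also held much heart muscle and mesenchyme RNA, as given below. The mesenchymal class (102 and 97 cells) had fewer than 2 epithelial genes, at least 1 UMI of Barx1, Nkx6-1 or Foxf1, and UMIs of at least 2 of 6 mesenchyme genes. Members had a median of 3536 UMIs in library 1 and 3197 in library 2, close to the 3481 and 3217 of the Foxa-positive class. UMIs were summed per class and library, and levels are given as CPM, the gene's UMIs after every sum is scaled to the same total. In such sums, fewer cells with a gene's RNA and less RNA per cell cannot be told apart, so counts of cells are given beside them.

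The rule alone set the level of the gating genes, and these are given as a description. Most members stood near the threshold: 22 and 17 of them had a single Nkx2-1 UMI and 17 and 8 had 2, while the highest counts were 10 and 11. Outside the gate, 6 cells in each library had Nkx2-1 UMIs, at most 2 in a cell, with UMIs of 0 or 1 epithelial gene. At this depth a cell that makes Nkx2-1 RNA can have no Nkx2-1 UMI, so the comparison classes may hold such cells. Among members, Epcam UMIs were present in 41 of 47 and 33 of 36 cells, and Cldn6 UMIs in 44 and 30. Foxa2 had a UMI in 20 of 47 cells but in only 5 of 36. A UMI of Foxa1 or Foxa2 was found in 66.0% of the members of library 1 (exact interval 50.7 to 79.1) and in 27.8% of those of library 2 (14.2 to 45.2).

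Markers of other cell types were summed over each list. The 4 neural tube markers had 14 and 5 UMIs in the members, 56.6 and 36.9 CPM against 86.1 and 43.6 CPM in the Foxa-positive class, all of them from Nes. The 4 neural crest markers had 5 and 2 UMIs, 20.2 and 14.7 CPM against 15.7 and 12.7 CPM, with Sox10 and Foxd3 at 0. The 5 endothelial markers had 2 and 2 UMIs, 8.08 and 14.7 CPM against 1.57 and 5.45 CPM, with Cdh5 and Tek at 0. The 3 notochord markers had 0 and 1 UMIs. The 6 mesenchyme markers summed to 72.7 and 88.5 CPM in the members, the 6 surface ectoderm markers to 4.04 and 29.5 CPM, the 3 epicardial markers to 4.04 and 0 CPM and the 4 macrophage markers to 4.04 and 0 CPM. The 6 cardiomyocyte markers summed to 72.7 and 170 CPM in the members, against 81.4 and 514 CPM in the Foxa-positive class. The 5 hepatoblast markers summed to 80.8 and 36.9 CPM in the members and to 670 and 517 CPM in the Foxa-positive class, with Serpina1a, Fgb and Apom at 0 UMIs in the members. The 5 erythroid markers summed to 941 and 1173 CPM in the members and to 870 and 10332 CPM in the Foxa-positive class. The 4 markers that name the class, Nkx2-1, Epcam, Foxa2 and Cldn6, all had UMIs in both libraries, with Foxa2 in a minority of the cells. All 4 are gating genes, so their presence follows from the rule and is no check of the name.

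Against the Foxa-positive class, 35 of 9542 genes passed edgeR's quasi-likelihood test at a Benjamini-Hochberg adjusted p below 0.05, or 0.367%. Of these, 15 were higher in the members (0.157%) and 20 were lower (0.210%). Genes of early lung endoderm, Wnt7b, Etv5 and Id2, were among the higher ones, and the liver genes Fgb, Serpina1a, Ambp, Rbp4 and Ttr, the foregut factor Sox2 and the proteoglycan gene Nepn were among the lower ones. The fit used library as a block because all classes of a library share embryos and day. Without that replicate block 3 genes passed, namely AC154734.1, Mbip and Rbp4, and the other calls were made only with the block. With the compared cells matched for depth, which leaves fewer cells, 16 genes passed, of which 12 were among the 35. When a Foxa UMI was required of the members too, 36 genes passed, of which 28 were among the 35. The calls on Id2, Igfbp2, Wls, Akap5, Swt1, Fgb, Serpina1a, Hoxb1, Cxxc4 and Onecut2 were each lost in 4 alternative settings, and that on Ttr in 6.

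**Figure D1:**
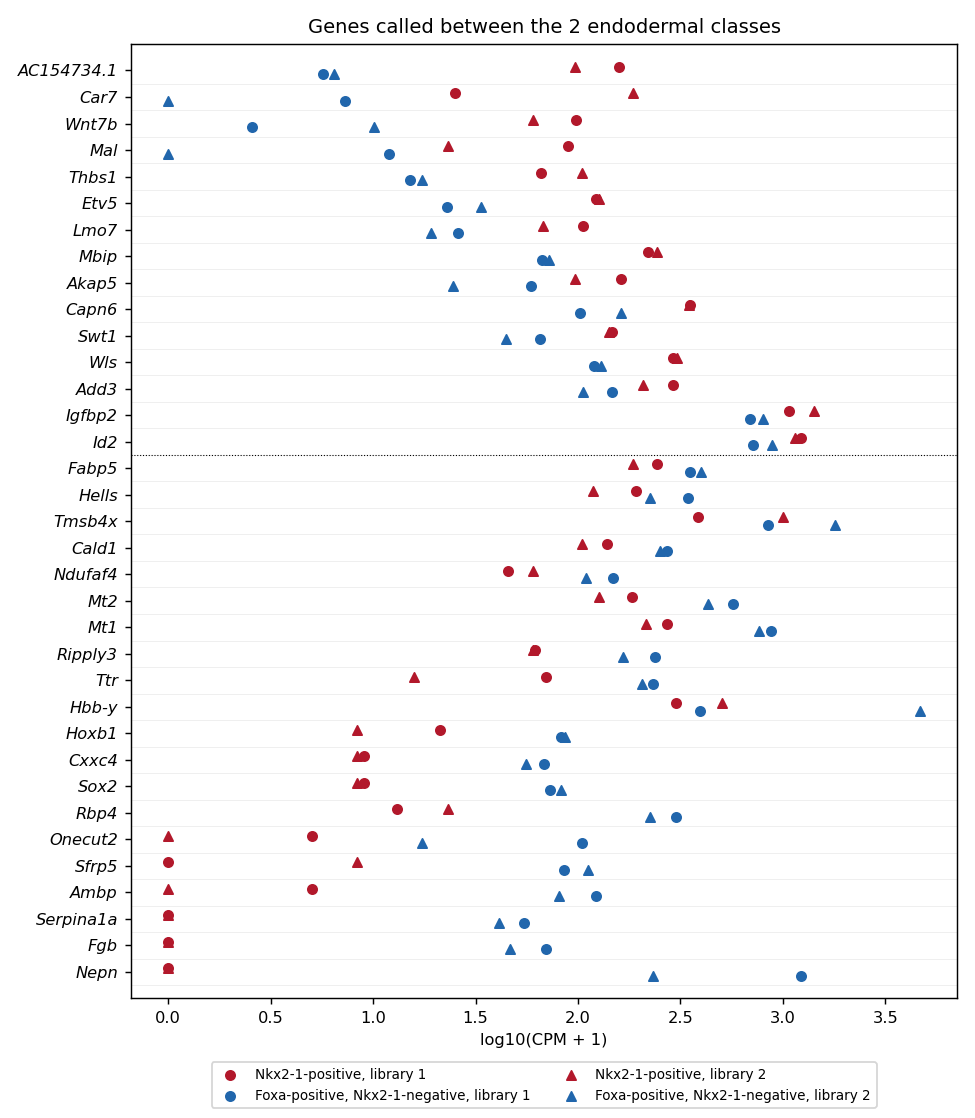
Level of each of the 35 genes that passed the test, as log10(CPM + 1), in the Nkx2-1-positive members (red) and the Foxa-positive, Nkx2-1-negative class (blue). Circles are library 1, triangles library 2, and the dotted line parts the 15 higher genes (top) from the 20 lower ones; Nepn, Fgb and Serpina1a sit at 0 in both libraries of the members.

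The lung and tracheal list held 34 genes, of which 27 had a UMI in the members and 20 could be tested. Among these, Wnt7b, Etv5 and Id2 were called higher and Sox2 lower, where 0.157% and 0.210% of all genes were. The median log2 fold change was 0.76, beside -0.02 over all genes tested. Filtering on low counts keeps genes high in some class, so the median describes only the genes that passed.

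Wnt7b, a Wnt ligand of lung epithelium, had 24 UMIs in the members of library 1 and 8 in those of library 2, against 1 and 5 in the Foxa-positive class. These are 97.0 and 59.0 CPM against 1.57 and 9.08 CPM. The log2 ratio was 5.24 in library 1 and 2.49 in library 2. The fitted log2 fold change was 3.95 ± 0.70 (SE) with an edgeR adjusted p of 0.00288. The RNA was found in 14 of 47 and 6 of 36 members and in 1 of 107 and 4 of 118 Foxa-positive cells. The call was kept in 9 of 11 alternative settings and lost without the replicate block and with depth-matched cells. Wls, which carries Wnt proteins to the cell surface, stood at 291 and 302 CPM in the members and 119 and 129 CPM in the Foxa-positive class, a log2 fold change of 1.21 ± 0.20 (edgeR adjusted p = 0.00138).

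Etv5, an ETS factor induced by FGF signalling, stood at 121 and 125 CPM in the members and at 21.9 and 32.7 CPM in the Foxa-positive class. Its UMIs came from 16 of 47 and 10 of 36 members, with at most 6 in a cell. The log2 fold change was 2.21 ± 0.37 (edgeR adjusted p = 0.0012), and the call was lost without the replicate block and in cells thinned to 1000 UMIs. Its relative Etv4 had 1 UMI in all members and 14 in the Foxa-positive class and was not tested. Fgfr2, the epithelial FGF receptor, stood at 60.6 and 59.0 CPM against 23.5 and 16.3 CPM, a log2 difference of 1.52 ± 0.44 that did not pass (edgeR adjusted p = 0.191).

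Id2, an inhibitor of basic helix-loop-helix factors and a marker of distal lung tips, was the most widely found of the called lung genes. It had UMIs in 43 of 47 and 30 of 36 members, and its level was 1220 and 1143 CPM against 717 and 882 CPM in the Foxa-positive class. The log2 fold change was small, 0.53 ± 0.12, with an edgeR adjusted p of 0.0325. In epithelial cells with at least 0.5% of UMIs from the liver genes, Id2 stood at 1189 and 1108 CPM. A high Id2 level was therefore not particular to the members. Sox2, a factor of the dorsal foregut and of conducting airways, moved the other way. It had 2 and 1 UMIs in the members and 46 and 45 in the Foxa-positive class, so the Foxa-positive level was 9.77 times that of the members (95% counting interval 3.24 to 48.3; edgeR adjusted p = 0.00601). The Sox2 call was lost without the replicate block, with DESeq2, and when all Nkx2-1-negative epithelium was the comparison. Sox2 lies within the transcript Sox2ot on the same strand.

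Other lung genes did not pass the test. Sox9, a factor of distal lung epithelium, stood at 92.9 and 170 CPM in the members against 59.5 and 52.7 CPM (edgeR adjusted p = 0.175). Foxp2 stood at 72.7 and 111 CPM against 17.2 and 25.4 CPM (edgeR adjusted p = 0.0947). Irx1, Irx2 and Irx3 had log2 differences of 1.22, 1.07 and 0.59, with edgeR adjusted p of 0.679, 0.481 and 0.770. Gata6, Foxp1 and Mycn had log2 differences of 0.46, -0.06 and 0.11. Some genes of the list are better known from differentiated airway and alveolar cells. Of these, Sftpc, Cldn18, Scgb1a1, Sftpd, Napsa and Ehf had 0 UMIs among the 383152 UMIs of the members, and Sftpb, Abca3, Lamp3, Ager and Elf5 had 1 each. Hopx had 2 and 4 UMIs in the members against 0 and 1 in the Foxa-positive class, and Elf3 1 and 4 against 4 and 2.

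**Figure D2:**
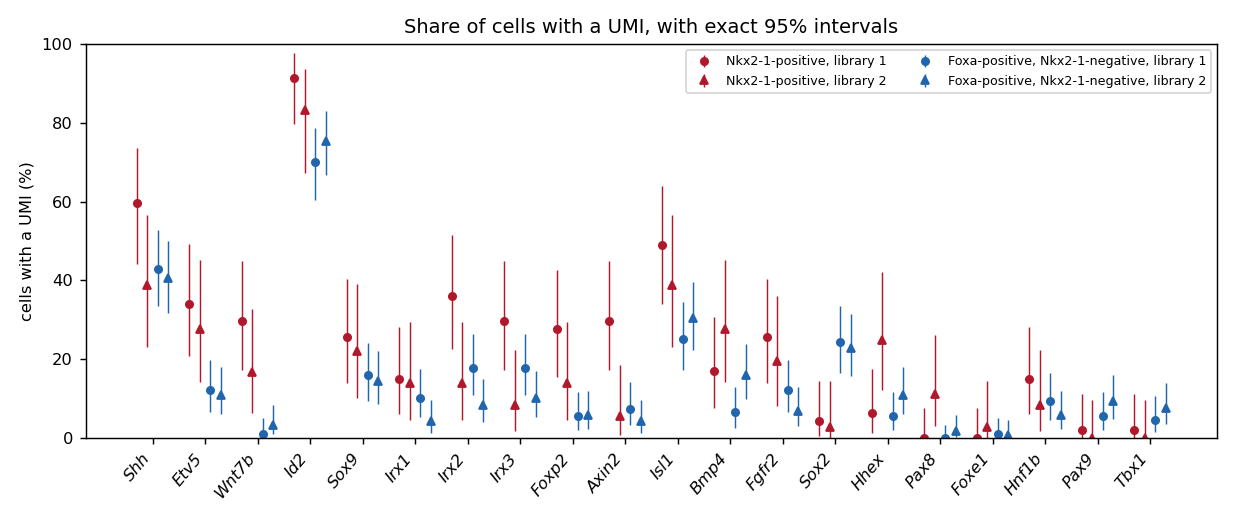
Percentage of cells with at least 1 UMI of lung, thyroid and pharyngeal genes in the members (red) and the Foxa-positive class (blue), with exact 95% binomial intervals that cover counting error only. Wnt7b was found in 29.8% and 16.7% of the members and in 0.935% and 3.39% of the Foxa-positive cells; Hhex was found most often in the members of library 2.

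Genes next to Nkx2-1 were among those called. Nkx2-1 lies on chromosome 12 from 56531958 to 56536908, on the minus strand (GENCODE M21 on GRCm38, mm10). AC154734.1, a noncoding transcript that GENCODE M21 names Sfta3-ps, runs from 56488321 to 56529427 on the same strand, and 2530 bp part its start from the annotated end of Nkx2-1. It had 39 and 13 UMIs in the members and 3 and 3 in the Foxa-positive class, a log2 fold change of 4.65 ± 0.61 (edgeR adjusted p = 5.01e-05), and was called in all 12 alternative settings, with log2 ratios of 4.79 in library 1 and 3.83 in library 2. RNA that runs past the annotated end of Nkx2-1 cannot be told apart from this transcript in these counts, so its value may not be independent of the gate. It also overlaps Gm47720 on its own strand.

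Mbip, which encodes a protein that binds the kinase MAP3K12, lies further downstream on the same strand from 56328303 to 56345894, with its start 191 kb from that of Nkx2-1. Its level was 218 and 243 CPM in the members and 65.7 and 70.8 CPM in the Foxa-positive class, 53.3 ± 3.18 CPM in the Foxa-negative epithelium and 42.7 ± 3.15 CPM in the mesenchyme (mean ± SD of 2 libraries). The log2 fold change from the Foxa-positive class was 1.71 ± 0.24 (edgeR adjusted p = 8.17e-05), and the call was lost only in thinned cells among 12 settings. Pax9, on the other side of Nkx2-1, had 1 UMI in all members and 37 in the Foxa-positive class (ratio 11.9, counting interval 2.01 to 483), which did not pass (edgeR adjusted p = 0.283). Nkx2-9, the neighbouring homeobox gene, had 1 UMI in the members and 3 in the Foxa-positive class.

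**Figure D3:**
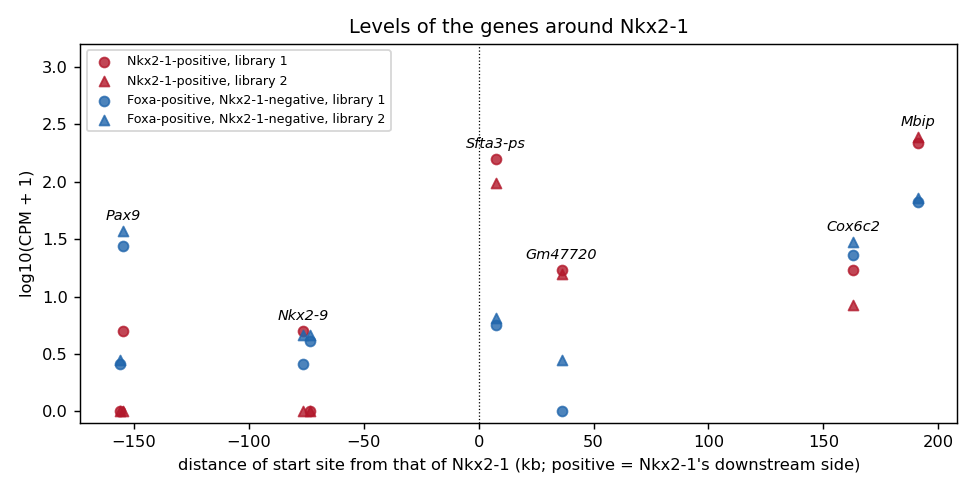
Level, as log10(CPM + 1), of genes with a UMI whose start sites lie within 200 kb of that of Nkx2-1, against distance in kb along the chromosome, with the downstream side of Nkx2-1 positive. Red marks the members and blue the Foxa-positive class; Sfta3-ps and Mbip are higher in the members in both libraries, and Pax9, which did not pass the test, has 1 UMI in the members.

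The other genes called higher have varied roles. Capn6, a calpain-family protein that binds microtubules, stood at 351 and 347 CPM against 102 and 162 CPM (log2 fold change 1.45 ± 0.23, edgeR adjusted p = 0.000921). Igfbp2, which binds insulin-like growth factors, stood at 1075 and 1423 CPM against 690 and 795 CPM (0.70 ± 0.15, edgeR adjusted p = 0.0184). Lmo7, Akap5, Swt1, Thbs1 and Add3 were also called, with log2 fold changes from 0.95 for Add3 to 2.37 for Thbs1. Mal, a proteolipid of apical transport, had 22 and 3 UMIs against 7 and 0. Car7, a carbonic anhydrase, had 6 and 25 UMIs against 4 and 0, but these came from 2 cells of library 1 and 8 of library 2. Taking the 12 genes named as highest together, a member carried UMIs of a median of 4 in each library, and a Foxa-positive cell of 2 and 1. The 12 genes were chosen for being higher in these same cells, so the direction of this difference follows from the choice.

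The promoter windows of these genes were searched for CAAGTG on either strand, the core of sites bound by NK2 homeodomain proteins. Of the 12 genes, 9 had a RefSeq window (GRCm38.p6, 250 bases before to 50 after the start), and 0 of the 9 held the letters. Over all genes with a window 15.4% held them. Absence from these 300 bases says nothing of binding elsewhere.

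Nepn, which encodes the small leucine-rich proteoglycan nephrocan, had the lowest edgeR p of the 35 genes. It had 0 UMIs in the members and 785 and 127 UMIs in the Foxa-positive class, so it was at least 42.6-fold lower in the members, taking 3 UMIs in each library as the floor (edgeR adjusted p = 4.22e-12). The bound rests much on library 1, since it was 101-fold there and 10.4-fold in library 2. In the Foxa-positive class the UMIs came from 29 of 107 and 11 of 118 cells, with up to 122 in a cell, so a minority of its cells carried the RNA. Among the members 0 of 47 and 0 of 36 cells had a UMI. Taking 3 cells as the floor, this allows a share of cells with a UMI of up to 6.38% and 8.33%, and the exact binomial upper bounds are 7.55% and 9.74%. The call was lost only without the replicate block among 12 settings.

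Liver-type genes made up part of the lower calls. Rbp4, the plasma carrier of retinol, had 3 and 3 UMIs in the members against 191 and 123, a log2 fold change of -4.12 ± 0.40 (edgeR adjusted p = 9.02e-08), and was called in all 12 settings. Fgb, a fibrinogen chain, had 0 UMIs against 44 and 25 (at least 3.34-fold lower, edgeR adjusted p = 0.0115). Serpina1a, an antitrypsin, had 0 against 34 and 22 (at least 2.72-fold lower, edgeR adjusted p = 0.0115). The bounds were 5.68-fold and 4.39-fold in library 1 but 2.05-fold and 1.81-fold in library 2. Ambp, the precursor of a plasma protease inhibitor, had 1 against 122 (ratio 39.3, counting interval 6.92 to 1565, edgeR adjusted p = 0.00185). Ttr, the thyroxine carrier, stood at 68.7 and 14.7 CPM against 230 and 203 CPM (edgeR adjusted p = 0.0185). The gate itself capped liver RNA in both classes at the same 0.5%, yet the Foxa-positive class still had 143 and 52 Afp UMIs where the members had 2 and 0. Whether cells of liver type in that class play a part in the other differences was not tested.

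Hoxb1, Ripply3, Sfrp5 and Onecut2 were also called lower. Hoxb1, a Hox gene of anterior identity, stood at 20.2 and 7.37 CPM against 81.4 and 85.3 CPM (log2 fold change -2.43 ± 0.50, edgeR adjusted p = 0.0115). Ripply3, a Tbx1 partner in pharyngeal endoderm, stood at 60.6 and 59.0 CPM against 238 and 165 CPM (-1.80 ± 0.33, edgeR adjusted p = 0.00383). Sfrp5, a secreted Wnt inhibitor of the foregut, had 0 and 1 UMIs against 54 and 61, a ratio of 37.0 (counting interval 6.52 to 1476). Onecut2, a factor of the liver and pancreas domain, had 1 and 0 against 66 and 9. Of the 12 pharyngeal genes tested, Ripply3 was the 1 called, of 11 oesophagus and stomach genes Onecut2, and of 12 Hox genes Hoxb1. Over all genes 0.210% were called lower. Tbx1 had 1 UMI in the members and 39 in the Foxa-positive class and did not pass (edgeR adjusted p = 0.199).

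The remaining lower genes included the metal-binding metallothioneins. Mt1 stood at 271 and 214 CPM in the members against 870 and 761 CPM (log2 fold change -1.72 ± 0.23, edgeR adjusted p = 5.01e-05) and Mt2 at 182 and 125 CPM against 573 and 432 CPM. Ndufaf4, Cald1, Tmsb4x, Fabp5 and Hells were called lower, with log2 fold changes from -0.79 for Fabp5 to -1.42 for Ndufaf4. Cxxc4, an inhibitor of Wnt signalling, had 3 UMIs against 73 (ratio 7.84, counting interval 2.58 to 38.9). Hells, a chromatin remodeller, was the 1 called among 23 S-phase genes, where 0.210% of all genes were called lower. The embryonic globin Hbb-y was called too, but 2232 of the 2567 UMIs of the Foxa-positive class in library 2 sat in 1 cell.

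Genes of the cell cycle, energy use and junctions were counted as well. Among the 25 genes of the G2 and M phases, 30 of oxidative phosphorylation, 18 of glycolysis and 37 of cell junctions that were tested, 0 passed edgeR's test and 0 passed with DESeq2. Over all genes 0.367% passed edgeR's test, so 0 calls among these genes is near that share. Of these 110 genes 10 had an unadjusted edgeR p below 0.05, as did 739 of all 9542. Their median log2 fold changes were -0.11, -0.11, 0.01 and 0.14. A difference that misses the threshold is not shown to be absent, since a sum of 36 cells limits the precision.

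The Hedgehog pathway was described by ligand and release genes, receptors and transducers, and targets. Shh stood at 509 and 347 CPM in the members and at 202 and 341 CPM in the Foxa-positive class, so the classes were nearly level in library 2. The log2 difference of 0.72 ± 0.22 did not pass (edgeR adjusted p = 0.206). Shh UMIs were found in 28 of 47 and 14 of 36 members, and in 46 of 107 and 48 of 118 Foxa-positive cells. With each cell thinned to 1000 UMIs the shares were 28.9% and 18.8% against 17.2% and 17.0%. Ihh had 2 and 2 UMIs in the members and 14 and 9 in the Foxa-positive class, and Dhh had 0.

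Against the other 2 classes Shh was far higher in the members. It stood at 38.2 and 35.5 CPM in the Foxa-negative epithelium, a log2 fold change of 3.60 ± 0.25 (edgeR adjusted p = 8.68e-11). In the mesenchyme it had 0 UMIs, so the members were at least 93.6-fold higher (edgeR adjusted p = 4.17e-13). Barcodes with only 10 to 200 UMIs, which can hold free RNA, had 0 Shh UMIs of 8713 UMIs in library 1 and 2 of 55494 in library 2. The latter is 36.0 CPM (exact 95% Poisson interval 4.36 to 130, counting error only), beside 35.5 CPM in the Foxa-negative epithelium of that library. The part of free Shh RNA in the level of that epithelium was not tested. The mesenchyme had 0 Shh UMIs among 1316334.

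The receptor Ptch1, also a Hedgehog target, was found in members as well. It stood at 60.6 and 66.4 CPM, against 51.7 and 45.4 CPM in the Foxa-positive class and 73.6 and 86.6 CPM in the mesenchyme, and neither difference passed (edgeR adjusted p = 0.895 and 0.617). Smo, the signal transducer, stood at 32.3 and 51.6 CPM in the members and 46.2 and 51.3 CPM in the mesenchyme (edgeR adjusted p = 0.769). Gas1, a coreceptor, had 3 UMIs in the members and 94 in the mesenchyme, a ratio of 9.12 (counting interval 3.03 to 45.0, edgeR adjusted p = 0.000346). Sufu, which restrains GLI factors, and Scube1, of a family that helps release the ligand, had 0 UMIs in the members and 24 each in the mesenchyme. They were called at least 1.08-fold and 1.07-fold lower, and each call was lost in 4 of 7 alternative settings.

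Gli1, Hhip and Osr1, targets of the pathway, were called lower in the members than in the mesenchyme. Gli1, the usual readout of the pathway, had 2 and 0 UMIs in the members and 19 and 29 in the mesenchyme, a ratio of 6.99 (counting interval 1.83 to 59.3, edgeR adjusted p = 0.0426), and the call was lost in 4 of 8 alternative settings. Hhip, a secreted-ligand trap induced by the pathway, had 0 against 41 and 12 (at least 2.29-fold lower, edgeR adjusted p = 0.00405). That bound rests on library 1, where it was 4.89-fold, since the 12 UMIs of library 2 lie under the floor. Osr1 stood at 64.6 and 36.9 CPM against 258 and 194 CPM, a log2 fold change of -2.13 ± 0.30 (edgeR adjusted p = 1.14e-05). Of 4 target genes tested against the mesenchyme 3 were called lower, where 2.36% of all genes were. The mesenchymal class was in part chosen by Foxf1, itself a Hedgehog target, so its target levels are not independent of the gate. Against the Foxa-positive class 0 of the 16 Hedgehog genes tested passed edgeR's test or DESeq2, and 4 had an unadjusted edgeR p below 0.05. Over all genes 0.367% passed edgeR's test, so 0 calls among 16 is near that share. An unadjusted edgeR p below 0.05 was found for 739 of all 9542 genes.

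**Figure D4:**
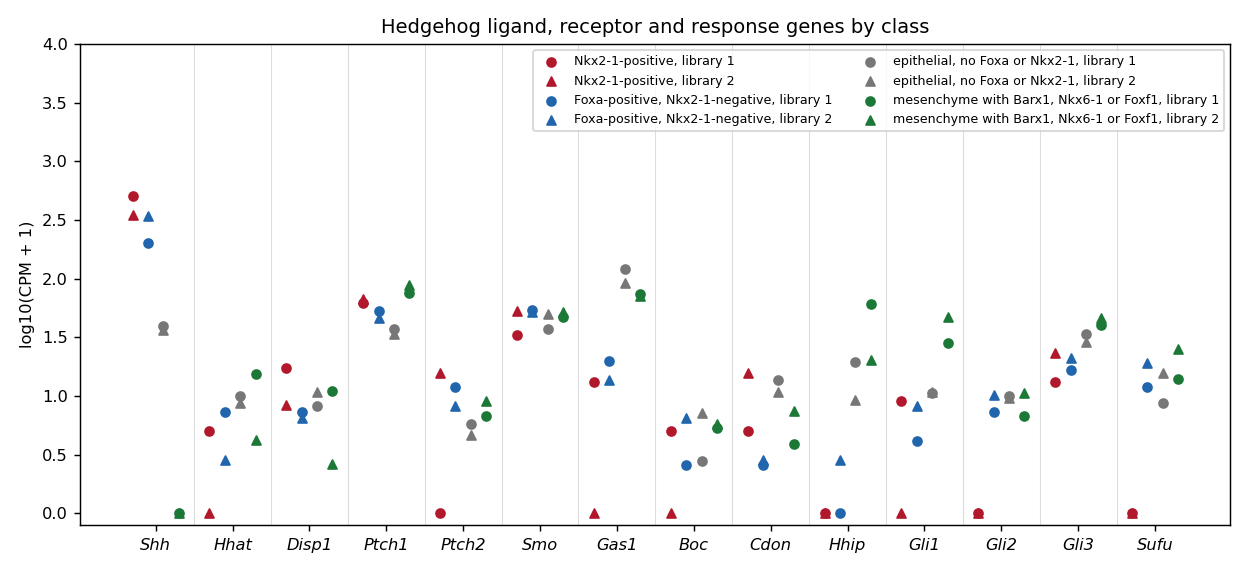
Level, as log10(CPM + 1), of Hedgehog ligand, receptor and target genes in the members (red), the Foxa-positive class (blue), the Foxa-negative epithelium (grey) and the mesenchyme (green), with circles for library 1 and triangles for library 2. Shh is at 0 in the mesenchyme and high in the endodermal classes, while Hhip and Gli1 are highest in the mesenchyme.

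The members were not uniform, and the 2 libraries held different amounts of a Hhex-positive subset. Hhex, a homeobox factor of thyroid and liver primordia, had 4 UMIs in library 1 and 34 in library 2, or 16.2 and 251 CPM, so the members' mean rests on library 2. Pax8, a thyroid factor, had 0 and 5 UMIs and Foxe1 0 and 1. The Foxa-positive class had 16 and 20 Hhex UMIs, and the difference did not pass (edgeR adjusted p = 0.380). Epithelial cells at or above the liver-gene limit of the gate had 52 and 75 Hhex UMIs, or 288 and 442 CPM. A high Hhex level was therefore not particular to the members. Tg, Duox2, Slc5a5 and Iyd, which serve hormone synthesis in the mature thyroid, each had 0 UMIs in the members. Of 15 thyroid genes 3 were tested, 0 passed edgeR's test or DESeq2, and 2 had an unadjusted edgeR p below 0.05. Over all genes 0.367% passed edgeR's test against the Foxa-positive class, and 739 of 9542 had such an unadjusted p.

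In library 2 none of the cells with Hhex, Pax8 or Foxe1 UMIs had a Shh UMI, while 2 of the 3 such cells of library 1 did. In library 2 thyroid-gene UMIs without Shh were found in 10 cells, Shh UMIs without them in 14, neither in 12 and both in 0. In library 1 these counts were 1, 26, 18 and 2. These sets were chosen after the values were seen and get no test. The thyroid-gene set rests mostly on Hhex. In library 2, 9 cells had Hhex UMIs and 4 had Pax8 UMIs, and 6 had Hhex without Pax8. In library 1 all 3 such cells had Hhex UMIs and 0 had Pax8 UMIs. The set is named for these genes only, and a thyroid identity was not tested. In library 2, 1 of the 10 thyroid-gene cells had a Foxa1 or Foxa2 UMI, against 5 of the 14 Shh cells. Etv5 UMIs were found in 0 of the 10 and in 7 of the 14, while Bmp4 UMIs were found in 5 and 2 cells. Library 1 went the other way, since all 3 of its Hhex cells had Etv5 UMIs and 0 had Bmp4 UMIs. In library 2, Isl1, a LIM-homeodomain factor of the second heart field and of foregut endoderm, was found in 5 of the 10 and 4 of the 14. The median depth was 4420 UMIs for the thyroid-gene cells and 3373 for the Shh cells. In library 1, Shh and Isl1 UMIs were both present in 19 cells, of 28 with Shh and 23 with Isl1. In library 2 they were both present in 4 cells, of 14 with Shh and 14 with Isl1.

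**Figure D5:**
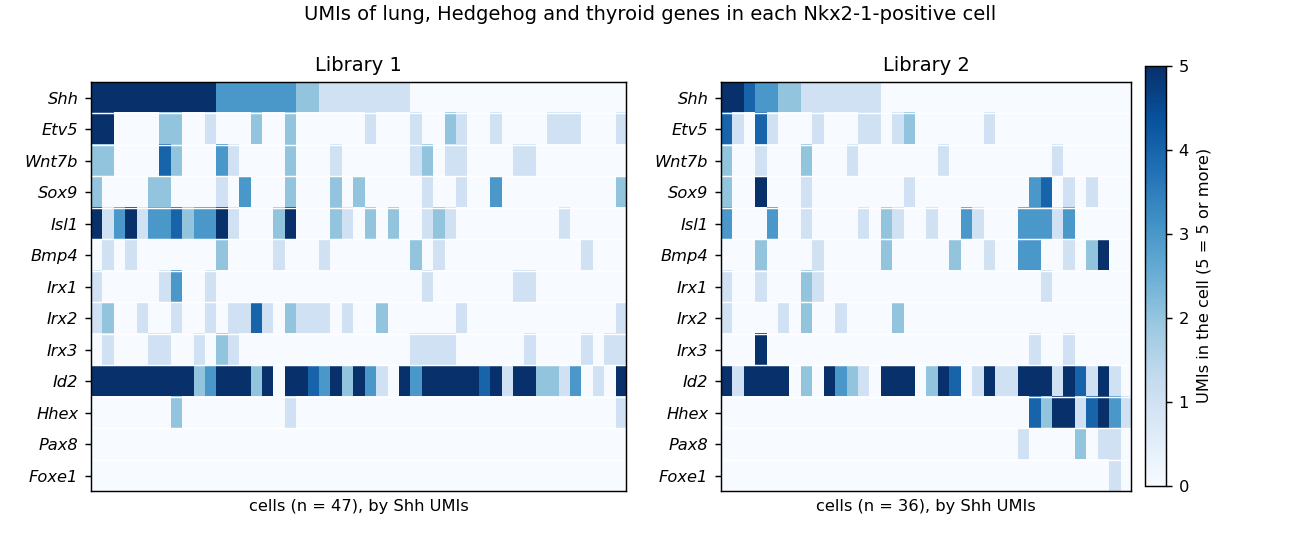
UMIs of lung, Hedgehog and thyroid genes in each of the 47 members of library 1 and the 36 of library 2, 1 column per cell, ordered by Shh UMIs; the colour scale stops at 5 UMIs. In library 2 the cells with Hhex UMIs all lie among those with 0 Shh UMIs.

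Against the Foxa-negative epithelium 278 of 9542 genes passed (2.91%), 121 higher and 157 lower in the members (1.27% and 1.65%). Besides Shh, the highest were Ces1d, a carboxylesterase, at 60.6 and 59.0 CPM against 1.19 and 1.22 CPM (log2 fold change 5.46 ± 0.76, edgeR adjusted p = 1.55e-05). Rfx6, a factor of gut endoderm, stood at 105 and 36.9 CPM against 6.57 and 3.67 CPM (3.79 ± 0.53, edgeR adjusted p = 2.28e-05). AC154734.1, Car7 and Wnt7b were also called higher. Of 20 lung genes tested, Wnt7b, Etv5, Id2, Irx2 and Foxp2 were called higher and 0 lower. Isl1 stood at 238 and 214 CPM against 87.2 and 101 CPM (1.24 ± 0.25, edgeR adjusted p = 0.00204).

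The genes lower in the members included genes of heart muscle, mesothelium and ectoderm. Ankrd1 and Csrp3, genes of heart muscle, and Hand1, a cardiac factor, had 0 UMIs in the members and 670, 416 and 336 UMIs in that class, so they were at least 8.95-fold, 5.58-fold and 4.37-fold lower. Foxi2, of ectoderm, and Upk3b, of mesothelium, were at least 5.49-fold and 4.06-fold lower, and the bound of Upk3b was 7.10-fold in library 1 and 2.40-fold in library 2. All 6 cardiomyocyte markers were called lower in the members. Their sum was 2453 and 3108 CPM in that class and 72.7 and 170 CPM in the members. Cells that passed the filters but met no class gate stood at 1767 and 2146 CPM. The 6 mesenchyme markers summed to 411 and 518 CPM in that class, against 72.7 and 88.5 CPM in the members. So this comparison does not set endoderm against epithelium alone. Hhex was called higher in the members (log2 fold change 2.70 ± 0.60, edgeR adjusted p = 0.00632), but with library 1 alone the ratio was -0.65 on the log2 scale, so this call rests on library 2. Without the replicate block 77 genes passed.

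Against the mesenchyme 593 genes passed (6.21%), 368 higher (3.86%) and 225 lower (2.36%). Of 37 junction genes tested 26 were called higher and 1, the mesenchymal cadherin Cdh2, lower. Crb3, a polarity protein, and Cldn3, a tight junction claudin, had 46 and 29 UMIs in the members and 0 in the mesenchyme, at least 27.6-fold and 18.7-fold higher, and 12.1-fold for Cldn3 in library 1 alone. Irx2 and Wnt7b were at least 15.8-fold and 17.1-fold higher. The epithelial gate of the members leaves these junction genes less than independent of the rule.

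The 6 genes named for the size of their change among those lower in the members were Col9a1, Nrk, Msc, Tbx5, Sparcl1 and Cxcl13. Col9a1, a collagen chain, Nrk, a kinase, and Msc, a muscle-repressing factor, had 0 UMIs in the members and 103, 77 and 71 in the mesenchyme, at least 4.57-fold, 3.34-fold and 3.09-fold lower. In library 2 alone the bounds of Nrk and Msc were 1.52-fold and 1.45-fold. Tbx5, a factor of heart and lung mesoderm, had 0 and 1 UMIs against 93 and 46, a ratio of 40.5 (counting interval 7.14 to 1609, edgeR adjusted p = 2.4e-05). Sparcl1, a matricellular protein, had a ratio of 50.1 (13.8 to 415) and the chemokine Cxcl13 one of 66.1 (11.7 to 2621). Without the replicate block 254 genes passed.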

How the data were processed

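The 2 Drop-seq libraries of 1 group were used. The deposited values are whole-number UMI counts per gene and barcode, with no normalization that the values show, per the deposited files. The submitters' processing notes name mm10 and Scanpy. No aligner or counting tool is named in these sources. Barcodes with 400 or more genes and a mitochondrial share of up to 10% were kept. Counts were summed into 12 sums (6 classes in 2 libraries) and tested with edgeR 4.0.16 (R 4.3.3), with class and library in the model, TMM scaling and filterByExpr. A gene was called at a Benjamini-Hochberg adjusted p below 0.05. The fit had 5 residual degrees of freedom beside 25.6 prior ones, so each gene's spread rested mostly on that shared across genes. All 6 classes entered the fit, and 21 gating genes were left out. The deviations of the members' libraries from their mean correlated with those of the other classes across 1295 genes (r from 0.519 to 0.703), and same-numbered sums share embryos and day. The fit was tested on simulated data drawn from its own model and spread, so a poor fit of that model could not show there. Of genes at 50 CPM or more, 38 of 100 changed 2-fold and 88 of 100 changed 4-fold were called. Of 9128 unchanged genes 0 were called. Scrublet's automatic threshold marked 1 and 2 cells, under 0.5%, so doublets were left in, and removing the 5% with the highest scores is an alternative.

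Named genes were the 12 largest changes each way against the Foxa-positive class and 6 each way in the other comparisons, among called genes whose libraries shared a direction and whose higher class reached 50 CPM, leaving out globin, ribosomal and mitochondrial genes and names of the Gm or Rik type. The lung, thyroid and Hedgehog lists and up to 4 of each other list were added. Values of Isl1, Hhex, Etv5 and others in the later comparisons were added after they were seen. The members and lists were chosen with earlier results of these data known. Promoter windows come from RefSeq (GRCm38.p6). Both libraries are biological replicates per the labels, and 2 libraries limit all comparisons.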

Additional observations from a re-analysis of the deposited data

How the results depend on the processing

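Against the Foxa-positive class, 35 genes were called, and 3 without the replicate block, 8 with cells thinned to 1000 UMIs, 16 with depth-matched cells, 62 with only the compared classes fitted, 94 with no filter on low counts, and 206 against all Nkx2-1-negative epithelium, a setting added after the data were seen. RLE scaling gave 37, DESeq2 30 (25 of them among the 35, and split 17 higher and 13 lower), doublet removal 34, 2 Nkx2-1 UMIs 33, 800 genes 36 and a Foxa UMI in the gate 36. Against the Foxa-negative epithelium, 278 became 77 without the block and 35 when thinned. Against the mesenchyme, 593 became 254 and 83. DESeq2 split its calls 132 higher and 93 lower, and 402 and 132, in these 2 comparisons. The share of members, 0.947% on average, was 0.502% with at least 2 Nkx2-1 UMIs and 1.47% of cells with at least 800 genes, and ranged from 0.730% to 1.16% with 1 library left out. Leaving out a library allows no test, so counts have no such value. Hhex against the Foxa-negative epithelium was -0.65 without library 2 and 4.70 without library 1. Wnt6, not called against the Foxa-positive class (log2 difference 0.62), was -3.30 against all Nkx2-1-negative epithelium. For these changes, the cause was not tested. Depth limits genes with few UMIs in the 383152 UMIs of the members.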
